A study of Rattus norvegicus with 145 samples.

Results

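Liver of 15 male rats was described at and below the lowest doses of acetamide in the first of the study's rat experiments (experiment A). The rats were those labelled as water vehicle, 30 mg/kg/day (mkd) and 100 mkd, 5 per group, and were taken from the 25 rats of that experiment and the 145 samples of the series by their dose label alone. Acetamide is a small amide that causes liver tumours in rats at high doses, and the study used the experiment to find the doses at which the liver responds. All groups were wild-type male Wistar rats (strain label Hsd:WI) aged 9 to 10 weeks, with no transgene. They received acetamide in water, or water alone, by gavage once a day for 7 days, and the left liver lobe was taken on day 8 after an overnight fast. The vehicle rats were fasted, gavaged and killed in the same way. Rats are numbered here from 1 to 5 within a group in the order of the deposited samples, which at 100 and 1000 mkd are the animals numbered 2 to 6 in the sample titles and at 300 mkd those numbered 1, 2, 4, 5 and 6. The other 2 groups, 300 and 1000 mkd with 5 rats each, were used as a scale for effects of the compound, and 5 vehicle males of the second experiment (experiment B, strain label Crl:WI, aged 8 to 10 weeks, 7 days of gavage) as a second look at variation among untreated livers. The question put to the low doses was whether any gene differed from vehicle and, where none did, how large a difference these animals could have hidden and which genes varied between animals.

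As background, acetamide is broken down in the liver to acetate and ammonia, so enzymes of amide hydrolysis, acetate activation and the urea cycle lie closest to its chemistry. Liver RNA of a fasted rat is also shaped by signals that have nothing to do with dosing: the circadian clock, in which Bmal1 (listed under its older symbol Arntl) and Clock switch on Per, Cry, Nr1d1 and Dbp and are in turn repressed, fasting hormones such as glucagon and corticosterone, growth hormone pulses, and type I interferon, which switches on antiviral genes. Quiescent hepatocytes divide rarely, so transcripts of the G2 and M phases are scarce in untreated liver and are a sensitive readout of proliferation.

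Between 20943368 and 37001581 reads per rat fell on genes, with a median of 29581776, and 11323 of the 17337 listed genes had enough reads to be tested. No library stood apart in depth, and all pairs of the 15 rats correlated between 0.957 and 0.986 across genes in log2 CPM (counts scaled to library size), with a median of 0.975 within groups and 0.976 between groups. Values are CPM after scaling by trimmed mean of M values (TMM) factors, which ran from 0.791 to 0.999 in the 15 rats and from 1.056 to 1.905 at 1000 mkd. Hepatocyte markers were high in every rat, with Alb, the albumin gene, at 165900 to 274300 CPM, and the 12 markers of exocrine pancreas summed to 29.3 to 66.5 CPM, of which Cela1 made 28.4 to 65.2 CPM and 4 were at 0 in all 15. A 0 in this table is no sign of absence, since Hba1, a globin gene, was also at 0 in all 15 rats. The summed level of 11 macrophage markers ran from 575.5 to 1659 CPM, and erythroid markers from 165.6 to 1153 CPM, the latter value in rat 5 at 30 mkd against 436.2 CPM or less elsewhere. In whole liver, fewer cells of a type and less RNA per cell cannot be told apart. Rats of 1 group were separate animals, so that the p-values measure the spread between animals. The study housed rats in shared cages, and cage was not part of the fits.

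No gene differed from vehicle at either dose. A gene was called where its fold change was at least 1.5 in either direction and its adjusted p-value was at most 0.05 in edgeR's quasi-likelihood test with Benjamini-Hochberg adjustment. At 30 mkd 0 of 11323 genes (0%) were called, at 100 mkd 0 (0%), with both doses pooled against vehicle 0 (0%) and at 100 against 30 mkd 0 (0%). The smallest adjusted p-values of edgeR were 0.9999, 1, 0.9999 and 0.772. An unadjusted p under 0.05 was reached by 324 genes at 30 mkd (2.86%), 232 at 100 mkd (2.05%) and 216 in the pooled comparison (1.91%), fewer than the 5 in 100 that the threshold allows without any difference, and by 725 genes at 100 against 30 mkd (6.4%). Such a shortfall means that these p-values were not evenly spread and is no added evidence of sameness. DESeq2's Wald test called 0 genes at 30 mkd and 1 of 14583 (0.00686%) at 100 mkd and again in the pooled comparison (0.00686%). That gene was RGD1560242, whose reads came from 2 rats at 100 mkd (90 and 138 reads). It had 0 reads in all 5 vehicle rats and in the other 3 rats at 100 mkd, 1 read in 1 rat at 30 mkd and 127 reads in 1 rat at 300 mkd, and it did not pass the edgeR filter.

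**Figure D1:**
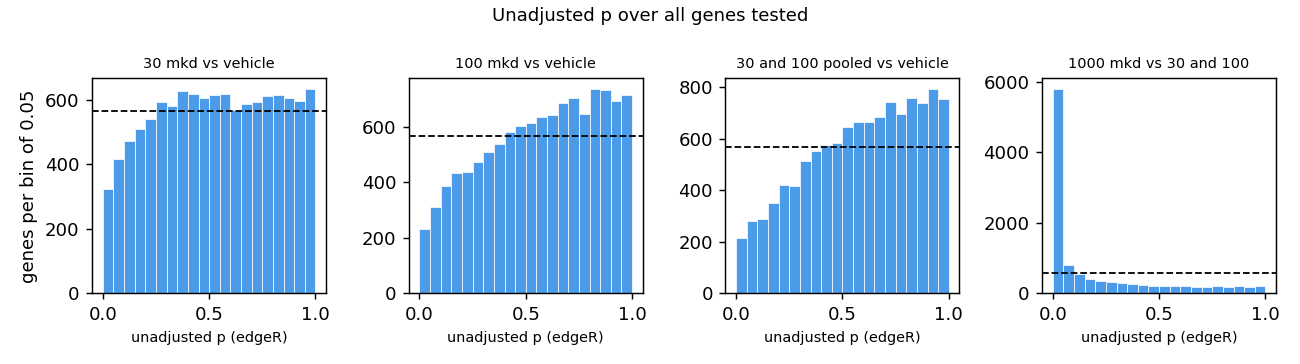
Histograms of the unadjusted p-values of edgeR's test over 11323 genes in bins of 0.05 for 30 mkd, 100 mkd and both pooled against vehicle, and for 1000 mkd against both low doses, with a dashed line at an even distribution. The 3 low-dose panels hold fewer genes than the line in the lowest bin (324, 232 and 216), whereas in the 1000 mkd panel most genes stand in that bin.

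How large a difference these animals could have hidden is given by the standard errors. The median standard error of a log2 fold change was 0.20 at either dose and 0.17 for both doses pooled. The 95% confidence interval lay inside a 2-fold change in either direction for 84.9% of genes at 30 mkd, 85.3% at 100 mkd and 90.2% in the pooled comparison, and inside a 1.5-fold change for 55.5%, 57.9% and 68.2%. Precision differed between gene groups. Intervals within 2-fold were reached at 30 and 100 mkd by 11 and 12 of 12 hepatocyte markers, by 15 and 15 of 17 genes of the urea cycle and ammonia handling, and by 13 and 13 of 14 genes of amide hydrolysis and acetate activation. Cholesterol synthesis reached it for 16 and 7 of 20 genes, fatty acid synthesis for 10 and 8 of 17 and fasting and gluconeogenesis for 7 and 6 of 18. For clock genes the counts were 4 and 5 of 15, for interferon-response genes 15 and 15 of 36, and for G2/M genes 20 and 14 of 45. The bounds on an unseen difference thus lay inside 2-fold for most hepatocyte markers, urea cycle genes and amide and acetate enzymes. Their median standard errors at 30 mkd were 0.2378, 0.2215 and 0.245, above the 0.1959 of all genes. The bounds were wide for the genes of fasting, the clock, interferon and mitosis. Lipid synthesis had fewer such intervals at 100 than at 30 mkd at a like precision. Its median standard errors at 30 and 100 mkd were 0.33 and 0.33 for cholesterol synthesis and 0.38 and 0.39 for fatty acid synthesis. The median log2 fold changes were 0.04 and -0.45, and 0.07 and -0.30.

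A single gene, Lbr, was separated between vehicle and all 10 dosed rats. Lbr encodes the lamin B receptor of the inner nuclear membrane and is a member of the G2/M list. The 5 vehicle rats had 5.68, 5.59, 5.26, 5.27 and 5.45 CPM, the rats at 30 mkd 5.09, 5.21, 4.08, 4.31 and 3.82 CPM, and the rats at 100 mkd 4.81, 4.05, 4.69, 4.73 and 4.93 CPM. The pooled log2 fold change was -0.25 (SE 0.12), with an unadjusted p of 0.0387 and an adjusted p of 1 in edgeR. It was 1 of 11323 genes (0.00883%) whose groups did not overlap in the pooled comparison, and such genes numbered 35 (0.309%) at 30 mkd and 36 (0.318%) at 100 mkd. It is named here after its values were seen, and among this many genes some separate such groups without any difference.

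The genes with the smallest p-values show what stood at the head of each comparison, although none passed the test. At 30 mkd the higher side was led by Ccng2, a cyclin G family member (log2 fold change 0.60, SE 0.16), Arhgap29 (0.77, SE 0.21), Foxa2 (1.12, SE 0.32), Bmf, a pro-apoptotic BH3-only gene (0.65, SE 0.20), and Rgs3 (1.43, SE 0.43). The lower side was led by Polr3d (-0.35, SE 0.08), Plk3 (-0.96, SE 0.25), Enc1 (-1.29, SE 0.34), Igfbp1 (-2.46, SE 0.66) and Alg12 (-0.33, SE 0.10). Each of these 10 had an adjusted p of 1 in edgeR. With both doses pooled, Zfp978 (0.81), Osgin1 (0.97), Foxa2 (0.93), Arhgap29 (0.59) and the autophagy gene Atg14 (0.29) led the higher side, and Enc1 (-1.16), Plk3 (-0.81), Polr3d (-0.26), Igfbp1 (-1.90) and Slc38a2 (-1.06) the lower. Foxa2, a transcription factor of hepatocytes, had 27.3, 17.6, 22.3, 14.5 and 20.4 CPM in the vehicle rats and 82.3, 29.3, 44.5, 32.2 and 33.8 CPM at 30 mkd. At 100 mkd it had 34.5, 39.7, 21.3, 25.1 and 50.3 CPM. All 5 rats at 30 mkd lay above the highest vehicle rat, whereas at 100 mkd 3 did, so that the group nearer to vehicle was the one with the larger dose. Polr3d, a subunit of RNA polymerase III, had 18.0, 20.4, 16.7, 19.3 and 18.0 CPM in vehicle, 15.6, 13.9, 13.9, 14.8 and 14.3 CPM at 30 mkd, and 15.8, 16.3, 17.2, 16.0 and 17.0 CPM at 100 mkd. Here too all 5 rats at 30 mkd lay outside the vehicle range and 3 of 5 did at 100 mkd. Plk3, a stress-responsive polo-like kinase, had 8.45, 8.68, 9.79, 15.5 and 6.43 CPM in vehicle, 5.12, 4.40, 4.42, 5.03 and 6.15 CPM at 30 mkd and 5.95, 5.34, 5.63, 5.16 and 8.84 CPM at 100 mkd, below every vehicle rat in 5 and 4 rats.

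At 100 mkd the higher side was led by Zfp978, a zinc finger gene (0.92, SE 0.23), Cytip (0.84), Osgin1 (1.06, SE 0.30), Pigq (0.33) and Dclre1c (0.43). The lower side was led by Ptgfr, the prostaglandin F receptor (-0.90, SE 0.24), Ddit4 (-0.83, SE 0.24), Gda (-0.60), Insig1 (-1.44, SE 0.47) and Cxcl1 (-2.65, SE 0.87). All had an adjusted p of 1 in edgeR. Osgin1, a gene induced by oxidative stress, had 149, 158, 182, 133 and 346 CPM in vehicle, 387, 329, 339, 328 and 387 CPM at 30 mkd and 308, 511, 396, 244 and 561 CPM at 100 mkd. Of the vehicle rats 4 lay below every dosed rat and the other, rat 5, lay among them, and the pooled log2 fold change was 0.97 (SE 0.26). Zfp978 had 0.912, 1.02, 1.44, 1.66 and 1.67 CPM in vehicle, 1.73, 2.29, 2.38, 1.45 and 3.18 CPM at 30 mkd, and 2.33, 2.65, 2.72, 1.93 and 3.07 CPM at 100 mkd. Its 5 rats at 100 mkd and 4 of its rats at 30 mkd lay above the vehicle range, at levels of about 1 to 3 CPM.

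In several of the genes lower in dosed rats, 1 vehicle animal widened the difference. Igfbp1, an insulin-like growth factor binding protein made by fasted liver, had 19.4, 38.8, 62.9, 601 and 165 CPM in the vehicle rats, 31.7, 35.2, 20.6, 40.5 and 33.4 CPM at 30 mkd and 68.0, 37.1, 95.7, 36.3 and 114 CPM at 100 mkd. No dosed rat lay below the vehicle range. Slc38a2, an amino acid transporter, had 125, 148, 156, 607 and 118 CPM in vehicle, 102, 134, 95.7, 105 and 117 CPM at 30 mkd and 156, 77.2, 91.6, 85.4 and 147 CPM at 100 mkd. Cxcl1, a neutrophil-attracting chemokine, stood at 58.0 CPM in vehicle rat 4 and at 13.6 CPM or less in the other 14 rats. Vehicle rat 4 was thus the highest of the 15 rats in each of these genes, and in Enc1 with 55.9 CPM against 23.7 CPM in the next vehicle rat. Without it, the log2 fold change of Igfbp1 went from -2.46 to -1.15 at 30 mkd and from -1.90 to -0.59 in the pooled comparison. That of Slc38a2 in the pooled comparison went from -1.06 to -0.30, that of Cxcl1 at 100 mkd from -2.65 to -0.57, that of Enc1 at 30 mkd from -1.29 to -0.76 and in the pooled comparison from -1.16 to -0.63, and that of Insig1 at 100 mkd from -1.44 to -0.98, with an adjusted p of 1 in edgeR for each. The same animal had the highest mean level of the glucocorticoid target list, 8.01 in log2 CPM against 6.44 to 7.13 in the dosed rats. Foxa2 (1.02 at 30 mkd), Polr3d (-0.33) and Osgin1 (0.86 pooled) were closer to their values with all rats. In Slc38a2 and Enc1, 4 rats at 30 mkd and 3 at 100 mkd lay below every vehicle rat. The counts were 2 and 4 in Insig1, and 1 and 1 in Cxcl1.

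**Figure D2:**
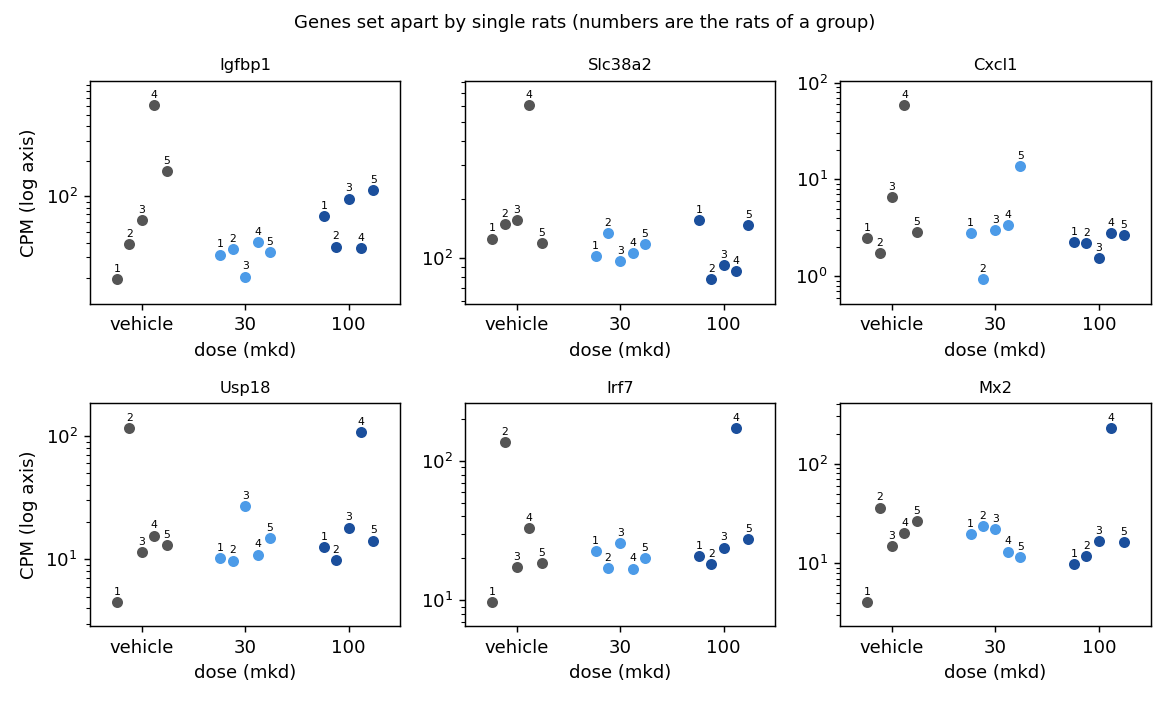
Level of 6 genes (Igfbp1, Slc38a2, Cxcl1, Usp18, Irf7 and Mx2) in CPM on log axes in each rat of the vehicle, 30 and 100 mkd groups, 5 rats per group, with the rat's number beside its point. Vehicle rat 4 is the highest point for Igfbp1 (601), Slc38a2 (607) and Cxcl1 (58.0), and vehicle rat 2 and rat 4 at 100 mkd are the 2 highest points for Usp18, Irf7 and Mx2.

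The 31 gene lists, which held 487 tested genes, gave 0 calls in each of the 4 comparisons among vehicle, 30 and 100 mkd. At an unadjusted p under 0.05 there were 18 list genes at 30 mkd (3.7% of list genes, against 2.86% of all genes), 21 at 100 mkd (4.31% against 2.05%) and 24 in the pooled comparison (4.93% against 1.91%). Of these 13, 19 and 20 were lower in dosed rats, beside 192 of 324, 126 of 232 and 140 of 216 over all genes. Among the enzymes nearest to acetamide, 14 genes of amide hydrolysis and acetate activation had a median log2 fold change of 0.18 at 30 mkd and -0.03 at 100 mkd, beside 0.00 over all genes. Cyp2e1, the cytochrome P450 of small solvents and amides, had 2235, 3187, 3164, 1859 and 2354 CPM in vehicle, 2848, 2697, 4903, 3762 and 2657 CPM at 30 mkd and 4389, 2961, 2086, 3271 and 3416 CPM at 100 mkd. The groups overlapped, with log2 fold changes of 0.40 (95% interval -0.21 to 1.01) and 0.33 (-0.27 to 0.94). Cps1, the entry enzyme of the urea cycle, had a log2 fold change of 0.03 (SE 0.25) at 30 mkd and -0.22 (SE 0.25) at 100 mkd, and of the 17 genes of urea cycle and ammonia handling 1 had an unadjusted p under 0.05 at each dose, Slc38a2.

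Of the lipid synthesis lists, that of cholesterol synthesis was one-sided at 100 mkd. Other lists leaned at that dose too. G2/M genes (42 of 45) and genes of ATF4 and the unfolded protein response (22 of 24) were mostly lower, and heat shock genes (15 of 17) mostly higher. All 20 genes of cholesterol synthesis were lower than in vehicle at that dose, with a median log2 fold change of -0.45, and Insig1 and Sqle were among those with an unadjusted p under 0.05, while at 30 mkd 7 of the 20 were lower with a median of 0.04. Sqle, the squalene epoxidase gene, had 108, 51.2, 91.7, 48.8 and 24.8 CPM in vehicle, 37.0, 89.2, 95.1, 36.9 and 67.3 CPM at 30 mkd and 53.7, 35.4, 32.8, 28.1 and 35.8 CPM at 100 mkd. The rats at 100 mkd lay close together, inside the range of the vehicle rats, among which rat 1 was highest. The list was lower at 100 mkd in 18 to 20 of its 20 genes with any 1 of the 15 rats left out (median -0.58 to -0.30) and in 20 under DESeq2 size factors. At 30 mkd its median changed sign with the rat left out, from -0.14 to 0.28. Fatty acid synthesis had a median of -0.30 at 100 mkd and 0.07 at 30 mkd, and Acly, Acaca, Fasn and Pklr, which carry citrate and pyruvate into fatty acids, had an unadjusted p under 0.05 at 100 mkd. Fasn, the fatty acid synthase, had 178, 55.2, 308, 64.6 and 27.9 CPM in vehicle, 197, 169, 60.5, 42.6 and 71.8 CPM at 30 mkd, and 72.4, 59.6, 49.7, 38.0 and 51.6 CPM at 100 mkd. Its log2 fold change at 100 mkd was -1.23 (SE 0.48, adjusted p 1 in edgeR). Vehicle rats 1 and 3 held the high values, and the other 3 vehicle rats lay near those at 100 mkd. Without vehicle rat 5, the lowest in Fasn, the list's median at 100 mkd was 0.00. The mean level of the list depended less on that rat. It was 6.28 in log2 CPM in vehicle rat 5, 6.35 as the mean of the vehicle group and 6.04 as the mean at 100 mkd. Between 100 and 30 mkd, 6 of 20 cholesterol genes and 4 of 17 fatty acid genes had an unadjusted p under 0.05, all lower at 100 mkd, with medians of -0.55 and -0.51, against 6.4% of all genes in either direction. None was called.

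Hormone-responsive genes were mixed. Socs2 and Cish, which are induced by growth hormone through Stat5, were higher at both doses without passing the test. Cish had 7.86, 2.40, 7.45, 23.1 and 7.15 CPM in vehicle, 76.4, 35.0, 53.0, 23.0 and 31.4 CPM at 30 mkd and 36.6, 27.6, 6.38, 1.96 and 71.3 CPM at 100 mkd. Its log2 fold changes were 2.19 (SE 0.82) and 1.58 (SE 0.81). Rats at 100 mkd had both the lowest value and one of the 2 highest values of the 15. Socs2 had 8.07, 3.19, 5.75, 20.6 and 7.32 CPM in vehicle, 27.4, 37.6, 12.4, 9.95 and 21.8 CPM at 30 mkd and 7.34, 23.8, 36.8, 7.28 and 83.2 CPM at 100 mkd, with a log2 fold change of 1.81 (SE 0.58, adjusted p 1 in edgeR) at 100 mkd. Of 25 genes of male- and female-biased liver expression, 2 had an unadjusted p under 0.05 at 30 mkd, both higher (Cish and Socs2), beside 2.86% of all genes, and 2 at 100 mkd (Socs2 higher and Prlr lower), beside 2.05%. Among 24 immediate early genes 5 were lower in the pooled comparison at an unadjusted p under 0.05 (Fosb, Btg2, Gadd45b, Fos and Atf3), against 1.91% of all genes in either direction. Each had its highest value in a single vehicle rat. Btg2 stood at 144 CPM and Gadd45b at 12.0 CPM in vehicle rat 4, with 39.0 and 7.34 CPM in the next rat, and Atf3 at 8.70 CPM in vehicle rat 5, with 3.55 CPM in the next. Fos stood at 24.6 CPM in vehicle rat 3, where Fosb was at 5.18 CPM, and Fos was at 6.33 CPM or less in the other 14 rats. Igfbp2, another binding protein of the insulin-like growth factors, was the gene with the largest difference among those leading 100 against 30 mkd (log2 fold change 1.93, SE 0.53, adjusted p 0.772 in edgeR), with 2.17, 1.74, 1.70, 0.762 and 1.57 CPM at 30 mkd, 8.48, 10.2, 6.05, 2.25 and 3.49 CPM at 100 mkd and 1.51, 2.72, 1.44, 2.02 and 11.9 CPM in vehicle. The 2 dosed groups did not overlap, as for 88 genes (0.777%) in that comparison, and the vehicle rats had values in the range of each. The other leaders at 100 against 30 mkd were Ccar1 (0.37), the interferon regulatory factor gene Irf8 (0.59), Tpcn2 (0.62) and Trim39 (0.47) on the higher side and the splicing regulator gene Mbnl1 (-0.51), Acbd5 (-0.64), rnf141 (-0.60), Aqp11 (-0.60) and Xpnpep2 (-0.59) on the lower side.

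Genes of cell division, which carry the proliferative response at higher doses, were not higher than in vehicle at 30 or 100 mkd. Of 45 G2/M genes, 39 showed a negative log2 fold change at 30 mkd and 42 at 100 mkd, with medians of -0.35 and -0.40, and 0 had an unadjusted p under 0.05 at either dose. For 35 S-phase genes the medians were -0.04 and -0.06. Mki67, a marker of cycling cells, had 3.58, 6.57, 2.68, 7.05 and 13.1 CPM in vehicle, 2.07, 7.90, 2.38, 6.06 and 4.12 CPM at 30 mkd and 4.51, 1.64, 5.06, 7.09 and 3.46 CPM at 100 mkd. The group means were 6.59 ± 4.09, 4.51 ± 2.48 and 4.35 ± 2.01 CPM (SD, n = 5 each), and vehicle rat 5 held the highest value. Its log2 fold change was -0.54 (95% interval -1.54 to 0.46) at 30 mkd, -0.60 (-1.61 to 0.40) at 100 mkd and -0.57 (-1.42 to 0.28) for both, and without vehicle rat 5 it was -0.13 (-1.15 to 0.88) at 30 mkd and -0.20 (-1.21 to 0.82) at 100 mkd, so that the upper bound on a rise rested on that rat. Top2a, which unwinds DNA in dividing cells, likewise was at 11.6 CPM in vehicle rat 5 and at 5.15 CPM or less in the other 14 rats. By mean log2 CPM over the 45 genes, vehicle rat 5 stood at 2.34, the other vehicle rats between 0.95 and 1.59, and the dosed rats between 0.59 and 1.54. Without vehicle rat 5 the median of the list was -0.07 at 30 mkd and -0.15 at 100 mkd, with 27 and 35 of 45 genes negative. By protein staining, the study reported a lower Ki67 labelling index than in vehicle at both doses. It described no treatment-related change at either dose.

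Against the 10 low-dose rats, the next doses gave the scale of a response. At 300 mkd 1 of 11323 genes (0.00883%) was called, Hebp2, a heme-binding protein gene. Hebp2 had 1.47, 0.508, 0.718, 0.572 and 0.919 CPM in vehicle, 0.691, 0.579, 1.76, 1.03 and 1.02 CPM at 30 mkd, and 0.595, 0.349, 0.750, 0.784 and 0.524 CPM at 100 mkd, with log2 fold changes of 0.23 (SE 0.63) and -0.48 (SE 0.66). At 300 mkd it had 8.28, 0.868, 15.1, 7.46 and 14.3 CPM, which put it 3.58 (SE 0.49) above both low doses on the log2 scale (adjusted p 0.00143 in edgeR). Rat 2 at 300 mkd lay within the low-dose range and the other 4 rats lay above all 15. The mitotic readout did not follow Hebp2 rat by rat: Mki67 at 300 mkd had 3.1, 21.9, 6.25, 11.8 and 12.5 CPM, with the highest value in that same rat 2. Mki67 had a log2 fold change of 1.32 (SE 0.40, adjusted p 0.718 in edgeR) at 300 mkd and of 2.60 (SE 0.39, adjusted p 2.5e-05) at 1000 mkd over the low doses. At 300 mkd 31 of the 45 G2/M genes were on the higher side with an unadjusted p under 0.05, as 1.93% of all genes were, and their median was 1.03 with 0 called.

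**Figure D3:**
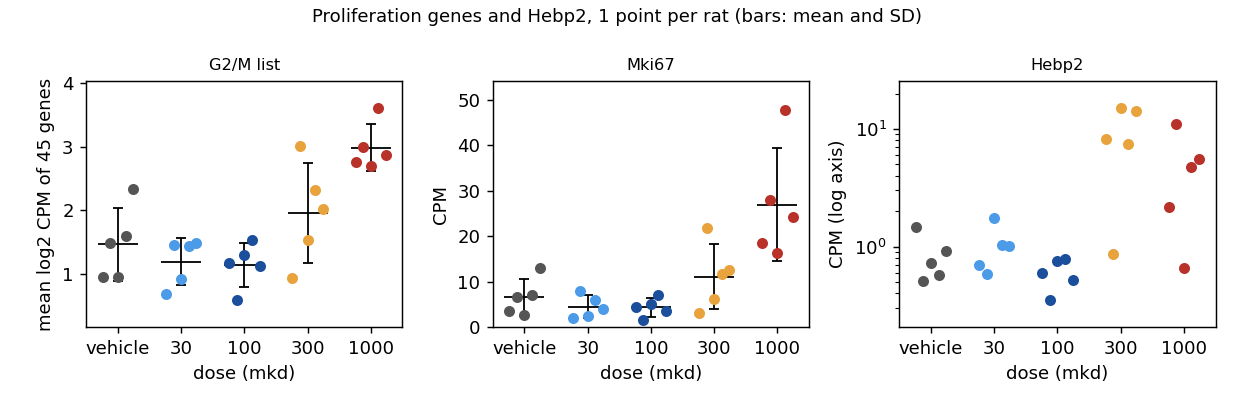
Mean log2 CPM of 45 G2/M genes, Mki67 in CPM and Hebp2 in CPM on a log axis, in each of 25 rats of the vehicle, 30, 100, 300 and 1000 mkd groups, with the mean and SD of 5 rats as bars in the first 2 panels. Vehicle, 30 and 100 mkd overlap in every panel, and within 300 mkd rat 2 is the lowest point for Hebp2 (0.868) and the highest for Mki67 (21.9).

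At 1000 mkd against both low doses 3037 genes (26.8%) were called, 1904 higher (16.8%) and 1133 lower (10%). Without rat 2 at 1000 mkd, whose TMM factor was the highest at 1.905, 1550 were higher and 691 lower. G2/M genes were higher in 39 of 45, with a median log2 fold change of 2.22, S-phase genes in 21 of 35 with 1 lower, and interferon-response genes in 33 of 36 (median 2.28). Lower were 12 of 21 xenobiotic P450 genes with 1 higher, 11 of 20 genes of cholesterol synthesis and 10 of 14 of amide hydrolysis and acetate activation with 1 higher, and 6 of 12 hepatocyte markers. Markers of macrophages (10 of 11) and of T and NK cells (9 of 9) were higher, and their part in the other differences was not tested. Clock genes were called in 0 of 15 (median -0.16).

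The spread between animals was larger than the spread between groups. Of the variance over 7790 well-expressed genes, 11.7% lay between the 3 groups and 88.3% within them, where 14.3% between groups is what the degrees of freedom alone would give. The biological coefficient of variation, the spread of a typical gene between rats beyond counting error, was 25.9% in vehicle, 26.8% at 30 mkd and 24.2% at 100 mkd, and 24.2% and 29.0% at 300 and 1000 mkd. Genes that spread over more than 4-fold within 5 rats numbered 618 (5.46%) in vehicle, 583 (5.15%) at 30 mkd and 484 (4.27%) at 100 mkd. The first 3 principal components held 31.6%, 15.8% and 8.42% of the variance, with rats of every group at both ends of the first, whose heaviest genes were Ciart, Dbp, Akr1b7 and Per3. Among the 500 genes with the largest SD within groups (4.42% of genes) were 10 of 15 clock genes, 10 of 25 sex-biased genes, 6 of 17 fatty acid synthesis genes, 12 of 36 interferon-response genes and 14 of 45 G2/M genes. None of the 17 urea cycle and ammonia genes, the 14 amide hydrolysis and acetate genes or the 12 hepatocyte markers was among them.

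The clock genes had the largest median SD within groups of the 31 lists (0.95 in log2 CPM, against 0.25 for hepatocyte markers). Dbp, a transcription factor that the clock drives, had 245, 224, 157, 4.22 and 11.0 CPM in vehicle, 101, 215, 225, 312 and 3.82 CPM at 30 mkd, and 264, 279.6, 6.00, 235 and 32.9 CPM at 100 mkd. The 15 rats split at a gap from 32.9 to 101 CPM, with 5 rats below it, 2 in vehicle, 1 at 30 mkd and 2 at 100 mkd. Arntl, which encodes Bmal1 and peaks at the opposite phase, ran the other way, with 1.02, 0.871, 4.88, 39.0 and 28.0 CPM in vehicle, 15.2, 2.34, 1.93, 0.953 and 44.2 CPM at 30 mkd and 2.08, 4.81, 35.1, 2.84 and 24.7 CPM at 100 mkd. The 5 rats lowest in Dbp were the 5 highest in Arntl. Per3, a repressor arm gene, had 56.9, 36.6, 28.4, 1.66 and 2.82 CPM in vehicle, 12.6, 49.1, 25.4, 45.7 and 1.27 CPM at 30 mkd and 44.9, 34.3, 2.67, 28.9 and 8.52 CPM at 100 mkd, and the same 5 rats were its lowest. Ciart, a repressor of Bmal1 and Clock, covered 395-fold from 0.0424 to 16.8 CPM, and Nr1d1, which encodes the Bmal1 repressor Rev-erb alpha, covered 10.6 to 199 CPM. Cdkn1a, the p21 inhibitor of cyclin-dependent kinases and commonly read as a damage marker, moved with these genes: it was at 109 and 51.3 CPM in vehicle rats 4 and 5, at 46.0 CPM in rat 5 at 30 mkd and at 41.1 and 28.1 CPM in rats 3 and 5 at 100 mkd, against 2.11 to 24.4 CPM in the other 10 rats. The 5 highest rats for Cdkn1a were again the 5 lowest in Dbp, a grouping that includes untreated animals. Log2 fold changes of Dbp were 0.42 (SE 1.08) at 30 mkd and 0.35 (SE 1.08) at 100 mkd, and those of Arntl -0.20 (SE 1.03) and -0.09 (SE 1.03), and the 95% interval of Dbp at 30 mkd ran from -1.82 to 2.65.

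**Figure D4:**
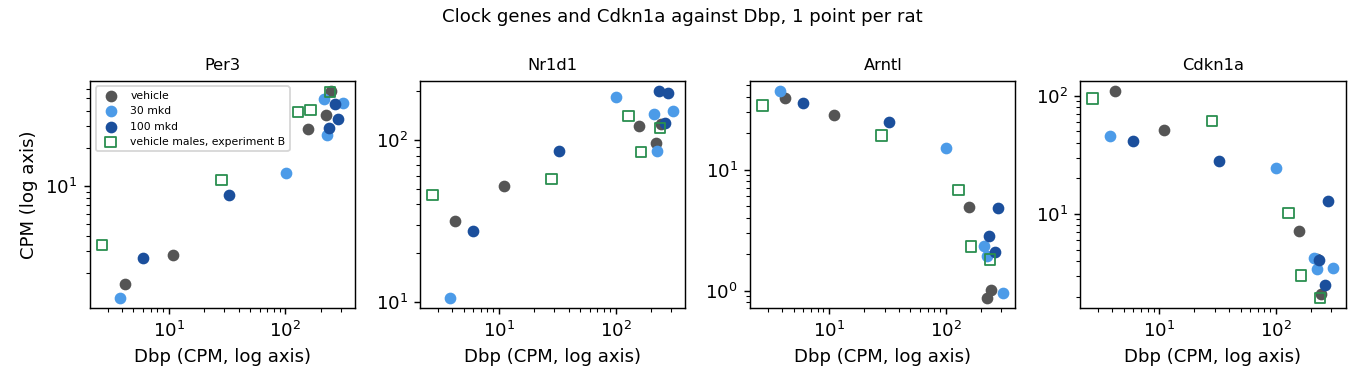
Per3, Nr1d1, Arntl and Cdkn1a against Dbp, all in CPM on log axes, for the 15 rats of vehicle, 30 and 100 mkd (filled) and 5 vehicle males of experiment B (open squares). The 5 rats with Dbp at 32.9 CPM or less come from all 3 groups, and they are the lowest in Per3 and the highest in Arntl and Cdkn1a of the 15.

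Promoter sequence shows the elements through which such genes are known to be switched. The 250 bases before the start site were read from RefSeq on build GRCr8 (the counts were made on Rn6), and 14 of the 15 clock genes had an entry. The E-box CACGTG, bound by Bmal1 and Clock, was found in 3 of 14 (Nr1d1, Tef and Ciart) against 5.59% of 33469 promoters. The D-box TTATGTAA, bound by Dbp and its relatives, was in 1 (Per2) against 0.828%, and TAGGTCA, bound by Ror and Rev-erb receptors, in 1 (Arntl) against 2.26%. Both strands were searched. The promoters of the gene at each pole of the pattern and of further clock genes are given 5′ to 3′ on the strand of the gene, with the matched letters in capitals.
Arntl (RefSeq symbol Bmal1), chr1:176766078-176766327 (plus strand): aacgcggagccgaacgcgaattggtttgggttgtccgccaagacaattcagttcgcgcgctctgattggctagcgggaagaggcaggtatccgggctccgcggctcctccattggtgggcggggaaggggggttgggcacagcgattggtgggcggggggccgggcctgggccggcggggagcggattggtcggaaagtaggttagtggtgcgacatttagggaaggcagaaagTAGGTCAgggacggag
Ciart, chr2:186112247-186112496 (minus strand): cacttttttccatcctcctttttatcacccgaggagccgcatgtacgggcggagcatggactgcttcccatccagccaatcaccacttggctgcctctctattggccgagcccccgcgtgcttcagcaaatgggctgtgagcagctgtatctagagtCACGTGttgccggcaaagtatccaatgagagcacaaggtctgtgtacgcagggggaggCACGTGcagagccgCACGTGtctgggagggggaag
Tef, chr7:115206577-115206826 (plus strand): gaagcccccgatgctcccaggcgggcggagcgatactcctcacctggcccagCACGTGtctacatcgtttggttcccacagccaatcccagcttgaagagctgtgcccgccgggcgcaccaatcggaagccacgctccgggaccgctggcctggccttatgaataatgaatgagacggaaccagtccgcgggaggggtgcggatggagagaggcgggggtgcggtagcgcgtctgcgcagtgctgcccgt
Per2, chr9:99496994-99497243 (minus strand): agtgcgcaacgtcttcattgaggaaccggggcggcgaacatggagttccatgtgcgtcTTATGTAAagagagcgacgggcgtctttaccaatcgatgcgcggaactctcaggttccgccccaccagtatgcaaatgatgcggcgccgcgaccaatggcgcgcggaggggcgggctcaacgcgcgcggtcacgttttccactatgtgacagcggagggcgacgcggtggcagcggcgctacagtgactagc
Ciart, the gene with the widest range of the clock list, holds 3 copies of the E-box in this window, and the Arntl promoter carries the receptor element close to its start. A match is a run of letters and not a measured site.

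A spread of the same kind was present in untreated males of experiment B, which were of another strain label and age range. Their Dbp levels were 165, 240.1, 2.70, 129 and 28.4 CPM, their Arntl levels 2.30, 1.81, 33.7, 6.76 and 19.0 CPM, and their Cdkn1a levels 3.04, 1.95, 94.7, 10.2 and 61.2 CPM. Rats 3 and 5 were low in Dbp and high in the other 2 genes. Over 7686 genes the SD of log2 CPM among the 5 experiment B vehicle males had a Spearman correlation of 0.693 with the SD within groups over the 15 rats, as a description across genes that share expression level and length. The median SD was 0.22 in experiment B and 0.25 in the 15 rats. The hour at which each rat of experiment A was killed is not given in the sources used here.

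Interferon-response genes were high in 2 rats, 1 untreated. Usp18, a brake on interferon signalling that is itself induced by it, stood at 116 CPM in vehicle rat 2 and 108 CPM in rat 4 at 100 mkd, against 4.53 to 27.2 CPM in the other 13 rats. Irf7, the transcription factor that amplifies the response, was at 137 and 173 CPM against 9.75 to 32.8 CPM. The antiviral GTPase genes Mx1 and Mx2 were at 32.4 and 53.1 CPM against 2.76 to 11.9 CPM, and at 36.1 and 228 CPM against 4.10 to 26.5 CPM. Isg15, a ubiquitin-like protein gene, was at 28.8 and 35.1 CPM against 2.46 to 7.92 CPM, and Oas1a, a sensor of double-stranded RNA, at 36.7 and 33.2 CPM against 1.33 to 10.8 CPM. Both rats were the 2 highest of the 15 for 26 of the 36 genes. An exception was Ifit1, at 35.4 CPM in vehicle rat 2 and 0.0327 CPM in rat 4 at 100 mkd. The macrophage markers were highest in the same 2 rats, at 1659 and 1424 CPM in sum against 575.5 to 1176 CPM in the others, with Clec4f, a Kupffer cell receptor, at 490.4 and 416 CPM against 126 to 397 CPM, and their part in the interferon pattern was not tested. With 1 such rat in vehicle and 1 at 100 mkd, the list had a median log2 fold change of 0.13 at 100 mkd and -0.18 at 30 mkd, where no rat was high, and at neither dose did any of the 36 reach an unadjusted p under 0.05. Without rat 4 at 100 mkd the median at that dose was -0.29, and without vehicle rat 2 the medians were 0.41 at 100 mkd and 0.10 at 30 mkd. At 1000 mkd the mean level of the list was 4.75 to 7.54 in log2 CPM, so that the 2 rats, at 4.94 and 5.13, lay inside that range while the other 13 lay between 3.12 and 4.16.

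Of the 36 interferon-response genes 26 had a promoter entry, and 16 of them held a pair of TTTC runs with any 2 bases between them, the core of the interferon-stimulated response element, on either strand, against 3.41% of all promoters. The promoters of Irf7 and Oas1a are shown because both genes separated the same 2 rats from the other 13, with the motif in capitals.
Irf7, chr1:205800024-205800273 (minus strand): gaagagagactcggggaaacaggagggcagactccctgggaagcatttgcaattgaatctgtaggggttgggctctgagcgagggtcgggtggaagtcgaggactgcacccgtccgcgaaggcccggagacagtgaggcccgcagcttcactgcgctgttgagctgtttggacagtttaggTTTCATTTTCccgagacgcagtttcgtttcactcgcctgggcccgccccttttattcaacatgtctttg
Oas1a, chr12:41330216-41330465 (plus strand): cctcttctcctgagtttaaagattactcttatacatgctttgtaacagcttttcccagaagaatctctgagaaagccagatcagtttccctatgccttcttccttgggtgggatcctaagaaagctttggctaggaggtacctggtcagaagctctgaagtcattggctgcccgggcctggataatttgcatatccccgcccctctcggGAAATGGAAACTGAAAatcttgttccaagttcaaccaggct
In Oas1a the letters are those of 2 overlapping matches on the opposite strand.

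A different kind of variation was on or off in single animals, with nothing in between. The gap between neighbouring rats was at least 3 on the log2 scale, with at least 3 rats on each side, for 6 genes. Ugt2b, named as 1 of the UDP-glucuronosyltransferases that conjugate steroids and drugs, had 0.737, 2126, 1353, 0.241 and 2010 CPM in vehicle, 3010, 1063, 0.396, 0.191 and 2748 CPM at 30 mkd and 0.545, 859, 0.610, 1.54 and 1954 CPM at 100 mkd. It was high in 3, 3 and 2 rats of 5, with no value between 1.54 and 859 CPM. Adh6, an alcohol dehydrogenase gene, had 0.0351, 68.2, 281, 268 and 0.131 CPM in vehicle, 0, 0.0868, 129.6, 151 and 0.0424 CPM at 30 mkd and 92.1, 0.244, 0, 0 and 0.105 CPM at 100 mkd, and was high in 3, 2 and 1 rats. RT1-Bb, a class II gene of the rat major histocompatibility complex, had 0, 24.2, 0, 0 and 16.3 CPM in vehicle, 15.9, 0.0289, 0, 0 and 0 CPM at 30 mkd and 33.5, 19.1, 33.5, 0 and 0.0699 CPM at 100 mkd. The sets of high rats differed between the 3 genes, and each group held both states of each. The other 3 genes were Clca5 (high in 1, 0 and 2 rats), Mpped1 (3, 3 and 3) and LOC100910237 (4, 5 and 2). In the 5 vehicle males of experiment B, Ugt2b was at 1745, 1905, 1.35, 0.414 and 1717 CPM and Adh6 at 203.7, 99.7, 0.165, 0.184 and 60.0 CPM, again in 2 states, whereas RT1-Bb lay between 26.0 and 93.7 CPM in all 5. Ugt2b, Adh6 and RT1-Bb belong to families of close copies, so their levels are uncertain where reads were split between copies.

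**Figure D5:**
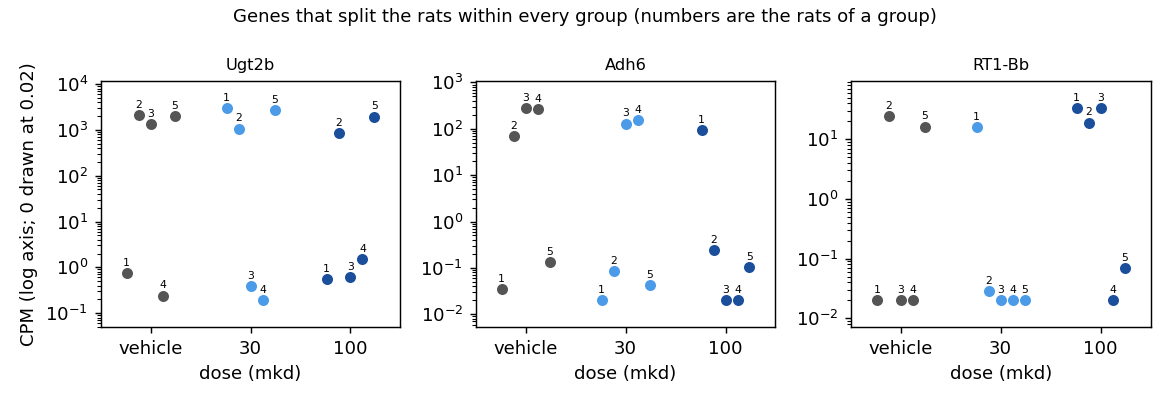
Level of Ugt2b, Adh6 and RT1-Bb in CPM on log axes in each rat of vehicle, 30 and 100 mkd, 5 rats per group, with 0 drawn at 0.02. Every group has rats in a high and in a low state for each gene, and for Ugt2b no rat lies between 1.54 and 859 CPM.

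Further genes stood out in 1 animal each, at least 4-fold above the other 14 rats and at 5 CPM or more. They were few, from 0 to 3 per rat, and are named after their values were seen. Vehicle rat 4 had Arid5a (19.5 CPM against 2.69 CPM in the next rat), a regulator of inflammatory mRNA stability, Cxcl1 and Slc1a4 (17.9 against 4.46). Vehicle rat 3 had Fosb (5.18 against 0.594). Rat 1 at 30 mkd had Rgs16 (26.9 against 5.34), a regulator of G protein signalling. Rat 5 at 30 mkd had the beta-globin gene Hbb-b1 (207 against 50.8) and Lgals5 (9.12 against 2.25), a galectin of red cell precursors, beside the highest erythroid sum of the 15 rats. Rat 4 at 100 mkd had Mx2. Single-animal patterns of this kind occurred in vehicle as well as in dosed rats.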

How the data were processed

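Liver RNA of 25 male rats of experiment A was analysed, 15 of them (vehicle, 30 and 100 mkd) in detail. The authors sequenced stranded mRNA libraries (75 bp single-end reads), trimmed with Trimmomatic, aligned to Rn6 with Bowtie2 and counted reads per gene with HTSeq (tools named in the submitters' processing notes; versions not given in the sources used here). The deposited values are raw counts per gene. From these, 1 edgeR 4.0.16 fit (R 4.3.3) over all 25 rats used filterByExpr, TMM factors and the quasi-likelihood F-test, with Benjamini-Hochberg adjustment over 11323 genes; the fold threshold was 1.5 and the adjusted p threshold 0.05, and log2 CPM used a prior count of 2. Standard errors were worked back from that test, as the absolute log2 fold change over the square root of F. The 95% intervals used them with a t distribution. DESeq2 1.42.0 was an alternative. Counts of the experiment B vehicle males were scaled separately and give levels only, without a test across experiments.

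Genes named were the 5 with the smallest p in each direction among genes with a mean of at least 1 CPM, Hebp2, Mki67, members of the lists, the 15 genes with the largest SD within groups, and on/off genes. The groups, members and lists were chosen with earlier results of these data known. The fits were tested on simulated data. Animal numbers in the sample titles did not pair rats (4 of 13 same-number pairs of the 15 rats correlated over 0.1, range -0.408 to 0.564). Alternatives were other scaling, filters, only the groups compared, a replicate block, each rat left out and, added after the data were seen, a block by title number and a clock score as covariate. No 2 libraries were identical.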

Additional observations from a re-analysis of the deposited data

Results flagged for a closer look

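Of 189 groups of 5 rats checked (52 genes and 11 list means in 3 groups), 18 (9.52%) held a rat apart from the others. The gap of such a rat to its nearest neighbour was over 0.71 of the group's range, where chance gives about 1 group in 20. Gaps and ranges of genes were taken in log2 CPM with a small offset, whereas the gene values below are in CPM. Many of the genes checked had been chosen for their spread or for gaps between rats, so a share above that of chance was built in. Vehicle rat 4 was apart in Slc38a2 (607 CPM, next 156), in Pigq, of glycosylphosphatidylinositol anchor synthesis (12.9, next 14.6), and in the mean of glucocorticoid targets (8.01 in log2 CPM, next 6.95). Other vehicle rats were apart in Atg14, an autophagy gene (rat 1 at 15.9 CPM, next 13.4), in Clca5 (rat 1 at 22.9, next 0.0984) and in LOC100910237 (rat 2 at 0, next 0.737).

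At 30 mkd, rat 5 was low in Dbp (3.82 CPM, next 101) and in the mean of the clock list (3.39 in log2 CPM, next 4.59) and high in the mean of erythroid markers (4.45, next 2.76). Rat 1 was high in RT1-Bb (15.9 CPM, next 0.0289) and low in Akr1b7, an aldo-keto reductase gene (0.314, next 24.4). Rat 4 was high in Dclre1c, a DNA repair nuclease gene (7.09, next 5.61), and low in Gpm6a (0.381, next 7.41), and rat 2 was low in Aqp11, an aquaporin gene (9.20, next 13.2).

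At 100 mkd, rat 4 was high in the mean of interferon-response genes (5.13 in log2 CPM, next 3.82), rat 5 in Plk3 (8.84 CPM, next 5.95), rat 3 in Cytip (9.75, next 5.71) and rat 1 in Adh6 (92.1, next 0.244).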

How the results depend on the processing

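The counts of called genes at 30 mkd, at 100 mkd, pooled and at 100 against 30 mkd stayed at 0 under DESeq2 size factors, both other filters, the fit of only the groups compared, the replicate block and each rat left out. DESeq2's Wald test was the exception with 1 gene, RGD1560242, at 100 mkd (adjusted p 0.00771) and pooled (0.0298). With only the groups compared, the smallest adjusted p of edgeR was 0.322 at 30 mkd, 0.532 pooled and 0.88 at 100 against 30 mkd. With a clock score of each rat as covariate, added after the data were seen, the 4 counts were 0 too, and the median SE was 0.19 at either dose. For 300 mkd against the low doses the count was 1, and 5 by DESeq2. With rats left out in turn it ran from 1 to 7, with 2 without rat 2 at 30 mkd and 7 without rat 1 at 300 mkd, and Hebp2 was among them each time. For 1000 mkd it was 3037 and ran from 2241 (without rat 2 at 1000 mkd) to 3460 with rats left out. With the replicate block on the order of rats within a group, which is not the number in the titles, the 6 counts were 0, 0, 0, 0, 1 and 3064. With a block by title number, added after the data were seen, they were 0, 0, 0, 0, 3 (Hebp2, Cdca3 and Pttg1) and 3052. Same-order pairs had a median correlation of 0.162 and others -0.0365, and same-title pairs -0.0761 and others 0.0463. Genes at an unadjusted p under 0.05 were less stable: 175 (without rat 3 at 30 mkd) to 542 (without rat 1 at 30 mkd) for 30 mkd, 201 to 351 for 100 mkd, 136 (without vehicle rat 4) to 354 pooled, and 353 to 1010 for 100 against 30 mkd. Most named genes had been picked for the smallest p in the same data and were not called. Agreement between fits was thus largely built in. Of 957 alternative log2 fold changes of named genes, 955 kept their direction and call. Those of Hebp2 turned to 0.174 pooled without vehicle rat 1 (range with rats left out -0.257 to 0.174) and to -0.0299 at 30 mkd without rat 3 (range -0.0299 to 0.533), and the cause was not tested. A prior count of 0.5 gave the same 6 on/off genes. Depth limits the named genes that lay at or below about 1 CPM in most rats, such as Hebp2 and Fosb.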
